A study of Mus musculus with 4 samples.

Results

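In mouse neural progenitor cells, crosslinking peaks of the RNA helicase DHX9 lay on the transcript of its own gene, Dhx9, and on those of several other genes of double-stranded RNA biology. The 9 genes described here are Dhx9, Zfr, Ilf2, Dgcr8, Stau1, Stau2, Adar, Adarb1 and Ddx58, of 21900 protein-coding genes annotated in RefSeq on GRCm38.p6 (mm10). They were chosen by name with earlier results of these data known, so the shares below are a description. A peak was counted for a gene when its midpoint lay in the gene's span, and 92 of the 43106 peaks in the list (0.213%) did so. At least 1 peak lay in 6 of the 9 genes (66.7%), compared with 18.9% of all protein-coding genes. In the length deciles of the 9 genes, 17.0 to 39.7% of protein-coding genes held a peak. At least 3 peaks lay in 5 of the 9 genes, against 11.4% of all protein-coding genes, and at least 10 in 4, against 4.83%. The other 3, Adar, Adarb1 and Ddx58, held none.

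The study used FLASH, in which ultraviolet light fixes proteins to RNA, an antibody pulls a protein down and the attached RNA is sequenced. There were 2 libraries with a rabbit antibody to DHX9 and 2 with rabbit IgG as background, labelled replicates A and B of each. All 4 came from neural progenitor cells that had been differentiated from the male embryonic stem cell line WT26 (strain C57BL/6x129sV), grown in adherent culture for 7 days and as embryoid bodies for 72 hours and then kept in N2B27 medium with EGF and FGF2 at 10 ng/ml each and irradiated at 0.15 mJ/cm2. No genotype or treatment differed between the groups, and the antibody was the only difference that the labels give. How the IgG libraries entered the peak calling is not given. The authors' 1 peak list serves the whole series and gives positions and strands only. No value per library, depth, peak height or replicate error was therefore available, the numbers below have no test, and RNA level and binding cannot be told apart. Of 5 neural progenitor markers, Slc1a3 held 122 peaks and Fabp7 held 4, whereas Nes, Sox2 and Pax6 held none; peaks do not measure how much of a transcript the cells made.

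Double-stranded RNA forms when a transcript folds back on itself, often through inverted copies of a repeat. DHX9 unwinds such helices, ADAR enzymes convert adenosine to inosine within them, Staufen proteins use them to move or degrade messenger RNA, and the Microprocessor cuts short hairpins out of them to make microRNAs. In the cytoplasm, sensors such as RIG-I take double-stranded RNA as a sign of viral infection. Several of these proteins share the double-stranded RNA binding domain, and ZFR and ILF2 share another fold, the DZF domain, through which such proteins pair.

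The hairpins in these transcripts are where the peaks can be set beside a sequence of known fold. RefSeq places 3 microRNA hairpins inside the 9 genes, Mir1306 and Gm24572 in Dgcr8 and Mir1898 in Zfr. A DHX9 peak overlapped 1 of them, Mir1306. Over all the listed hairpins, inside and outside genes with peaks, 48 of 1005 (4.78%) were overlapped by a peak on either strand. The Mir1306 hairpin (chr16:18284239-18284317, minus strand, GRCm38.p6) is shown 5′ to 3′, with the bases inside the peak in capitals.
Mir1306: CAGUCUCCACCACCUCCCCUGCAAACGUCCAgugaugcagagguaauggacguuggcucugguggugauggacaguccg
The peak (chr16:18284287-18284471, minus strand) took in bases 1 to 31 of the 79, which is the 5′ arm of the hairpin. All 23 bases of mature miR-1306-5p lay in the peak, and none of the 21 bases of miR-1306-3p on the other arm did. The next peak downstream (chr16:18284037-18284200) began 38 bases past the end of the hairpin, so the 3′ arm fell in the gap between 2 peaks.

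The second Dgcr8 hairpin, Gm24572 (chr16:18284550-18284637, minus strand), lay upstream of Mir1306, and no peak touched it. It ended 78 bases before the peak that covers the 5′ arm of Mir1306. In Zfr, the single distant peak of the gene (chr15:12171276-12171380, plus strand) ended 111 bases upstream of the Mir1898 hairpin (chr15:12171492-12171574). The mature microRNAs of the 3 hairpins are given to show which arms the peaks reached, with the seed (bases 2 to 8) in capitals.
miR-1306-5p: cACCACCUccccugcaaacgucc
miR-1306-3p: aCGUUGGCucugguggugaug
miR-3618-5p, from Gm24572: uGUGAUUUccaauaauugaggc
miR-3618-3p, from Gm24572: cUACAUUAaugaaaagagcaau
miR-1898: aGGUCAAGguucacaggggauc
Each of the 5 seeds was carried by 1 mature microRNA of the table, so no 2 of them share a seed. Only miR-1306-5p had bases inside a peak. Within 200 bases of a peak lay all 3 hairpins, against 7.36% of all listed hairpins, a distance chosen after the positions were seen. The 3 lie in Dgcr8 and Zfr, which held 12 and 29 peaks, whereas the 7.36% covers hairpins inside and outside genes with peaks. Gm24572 was counted through the same peak that overlaps Mir1306.

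**Figure D1:**
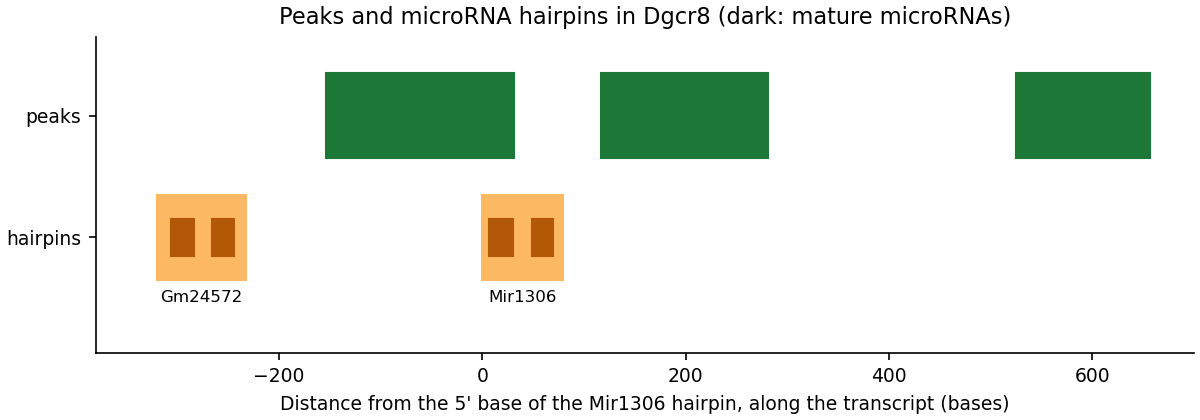
Peaks and microRNA hairpins around Mir1306 in Dgcr8, by distance in bases from the 5′ base of the Mir1306 hairpin along the transcript. Green boxes are peaks, light boxes hairpins and dark boxes mature microRNAs; 1 peak covers the 5′ arm of Mir1306, the next starts 38 bases past its end, and Gm24572 ends 78 bases before the first.

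Dhx9, which encodes the helicase that was pulled down, carried the most peaks of the 9 genes. Its span on chromosome 1 (153455756 to 153487688, 31.9 kb) held 32 peaks, all on the minus strand, which a reference table of promoters gives as the gene's own. That is 1.00 peaks per kb of span, and peaks covered 5514 bases, or 17.3% of it. By number of peaks Dhx9 ranked 249 of all protein-coding genes. Among the 2189 protein-coding genes of its length decile, 26.3% had a peak and 1.46% had at least as many as Dhx9.

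Most Dhx9 peaks lay in 4 runs of at least 3 peaks whose neighbouring midpoints were under 500 bases apart, between 1.64 and 20.26 kb from the 5′ end. The first run, of 7 peaks, lay at 1.64 to 3.56 kb, and the second, of 5, at 10.17 to 11.16 kb. The third was the largest, with 9 peaks in 1.93 kb (15.86 to 17.79 kb), and the fourth had 4 (19.60 to 20.26 kb). These runs held 25 of the 32 peaks. The longest peak of the gene, 478 bases, lay in the third run (153470759 to 153471236).

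Both ends of Dhx9 carried peaks. The first peak was centred 0.64 kb after the start site in the promoter table, and the last, 342 bases long (153455979 to 153456320), was centred 0.39 kb before the 3′ end of the span. After the fourth run, a stretch of 8.64 kb between neighbouring midpoints had no peak. The peak that closes this stretch (153458706 to 153458881) overlapped the transfer RNA gene n-TIaat13 by 31 bases, although its midpoint lay outside it. All 32 midpoints lay in no other annotated gene. Exons and introns could not be assigned, because the tables used give spans without exons.

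Zfr encodes a zinc finger protein that binds double-stranded RNA and affects splicing. The gene (chromosome 15, 12117563 to 12185449, 67.9 kb) had 29 peaks, each on its own plus strand and in no other gene. This came to 0.427 peaks per kb and 7.49% of the span covered, and 3.93% of the genes in its length decile had as many or more. Zfr and Dhx9 thus had close numbers of peaks in spans of 67.9 and 31.9 kb.

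The distribution within Zfr was more uneven than in Dhx9. Of the 29 peaks, 28 lay in the first 25% of the span, between 1.22 and 15.94 kb from its 5′ end, and none in the following 37.83 kb. The remaining peak was the one upstream of Mir1898, at 53.76 kb. The shortest stretch that held 15 of the 29 midpoints measured 4.44 kb, or 6.54% of the span. The same measure, for 16 of 32 midpoints, was 29.5% of the span in Dhx9, and its median over the 1057 protein-coding genes with at least 10 peaks was 11.7%. The largest run had 10 peaks in 2.14 kb (8.32 to 10.45 kb), followed by 7 in 1.69 kb (13.54 to 15.22 kb).

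Ilf2 encodes NF45, a DZF protein that works in complexes with RNA-binding proteins. It held 2 peaks, both on its own plus strand, in 12.2 kb of chromosome 3 (90476201 to 90488379). They were 139 bases (90482086 to 90482224) and 87 bases long (90482981 to 90483067), both shorter than the list's median of 153 bases. They sat in the middle of the gene, 5.95 and 6.82 kb from its 5′ end. In its length decile 17.0% of genes had a peak and 12.5% had at least 2.

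**Figure D2:**
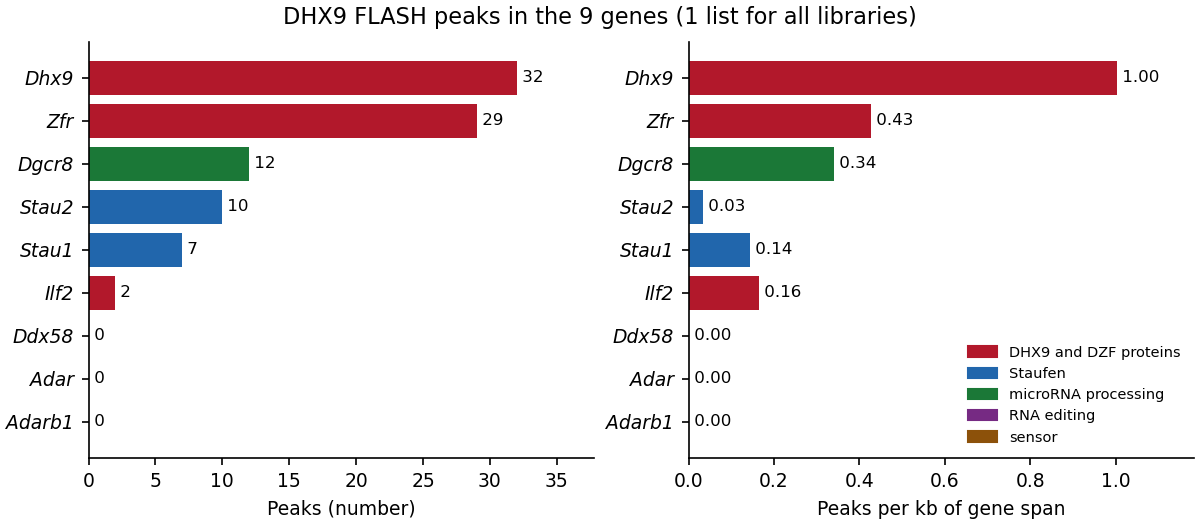
Number of peaks (left) and peaks per kb of gene span (right) in the 9 genes. Each bar is 1 gene in the 1 peak list of the series, so there are no error bars. Dhx9 leads on both scales with 32 peaks and 1.00 per kb, Stau2 has 10 peaks but 0.03 per kb, and Ddx58, Adar and Adarb1 are at 0.

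Dgcr8 encodes the double-stranded RNA binding subunit of the Microprocessor, which is known to cut hairpins in the Dgcr8 transcript itself. In the gene (chromosome 16, 18253948 to 18289251, 35.3 kb) there were 12 peaks, each on its own minus strand and in no other gene. That is 0.340 per kb, and 5.76% of genes in its length decile had at least as many. The peaks were short, with a median of 130.5 bases against 153 for the whole list, and ran from 82 to 284 bases.

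In Dgcr8 the peaks fell into 2 groups and a single peak. The first 3 peaks were centred 4.87, 5.13 and 5.52 kb from the 5′ end, and the Mir1306 hairpin shown above at 4.97 kb. The first of them overlapped the hairpin, the second began 38 bases past its end and the third 446 bases past it. A group of 8 lay between 13.32 and 15.96 kb, 4 of them in a run of 0.50 kb. One peak (18258397 to 18258534) lay alone at 30.79 kb, after a stretch of 14.83 kb with no peak. The 2 groups together put 11 of the 12 peaks in the upstream 50% of the span.

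**Figure D3:**
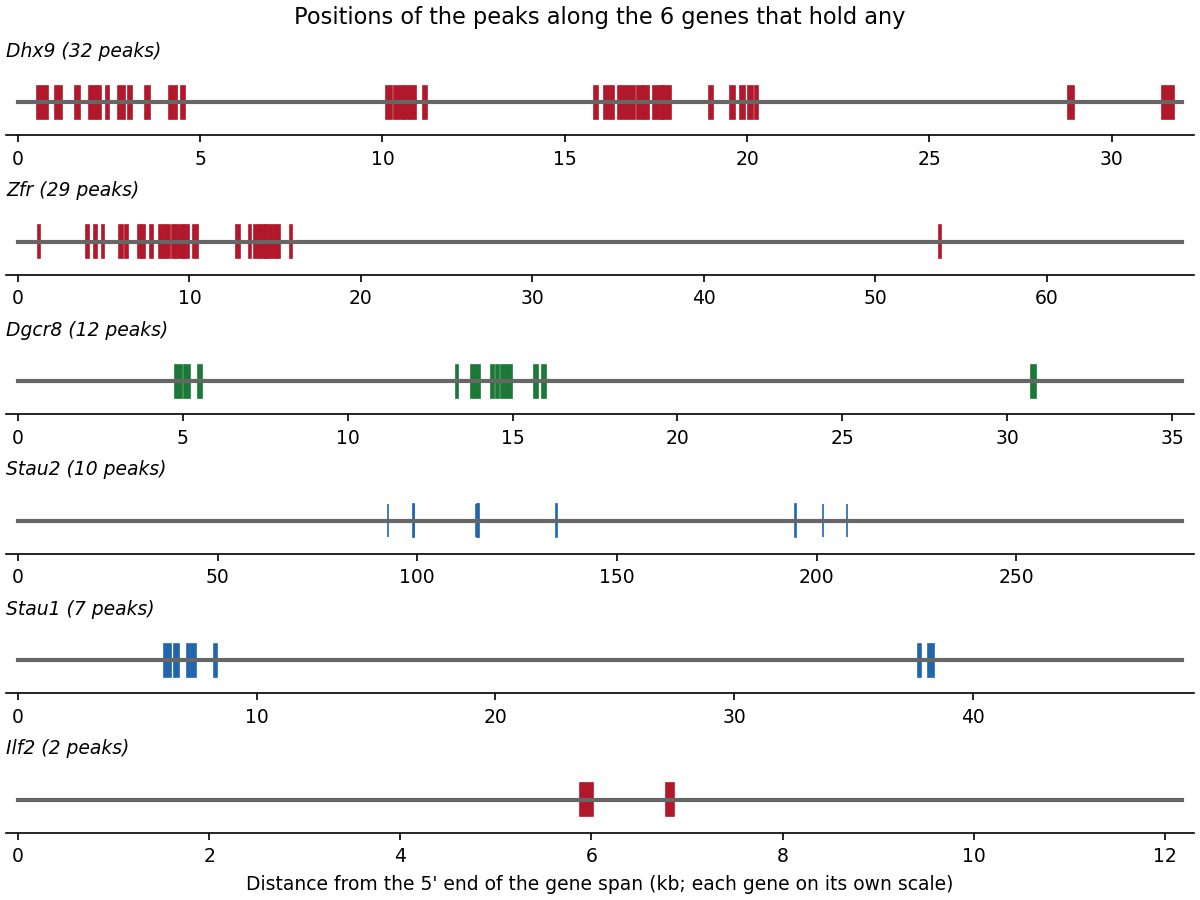
Peaks along the 6 genes that hold any, as distance in kb from the 5′ end of the gene span, each gene on its own scale; boxes are peaks drawn at their width and the grey line is the span. In Dhx9 the 4 runs of peaks lie between 1.64 and 20.26 kb with 2 single peaks near the 3′ end, while 28 of the 29 in Zfr lie before 16 kb.

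Stau1 and Stau2 encode the 2 Staufen proteins, of which STAU2 is known for carrying messenger RNA in neurons. Stau1 held 7 peaks over 48.8 kb of chromosome 2 (166947549 to 166996315) and Stau2 held 10 over 291.5 kb of chromosome 1 (16228803 to 16520332). Per kb this was 0.144 for Stau1 and 0.034 for Stau2, so the gene with more peaks was the sparser one. In their length deciles, 9.82% of genes had at least as many peaks as Stau1 and 14.4% at least as many as Stau2.

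The Stau1 peaks stood in 2 places, each a similar distance after an annotated start site. The promoter table gives Stau1 start sites at 166996299 and 166964717 on the minus strand. After the first, 5 peaks were centred between 6.26 and 8.27 kb downstream, 4 of them in a run of 1.08 kb. After the second, 2 peaks were centred 6.17 and 6.64 kb downstream. A stretch of 29.48 kb between the places had no peak, and this pattern was noticed after the positions were seen.

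The Stau2 peaks were scattered through the inner part of the gene. All 10 were on the minus strand, between 92.70 and 207.57 kb from the end of the span that is 5′ on that strand; Stau2 is not in the promoter table, so its own strand was not checked. Only 3 of them formed a run, at 114.74 to 115.33 kb. The median distance between neighbours was 6341.5 bases, against 302 in Dhx9, 341.25 in Zfr and 478.75 in Stau1. A single peak (16312689 to 16312833) also lay in the long noncoding RNA gene C130013N14Rik and cannot be assigned to one of the 2 genes.

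The editing enzymes and the sensor held no peak. Adar (chromosome 3, 89714469 to 89753455, 39.0 kb) encodes ADAR1 and Adarb1 (chromosome 10, 77290727 to 77418292, 127.6 kb) encodes ADAR2. Ddx58 (chromosome 4, 40203777 to 40239825, 36.0 kb) encodes RIG-I. The closest peak to Adar was 243.11 kb away, that to Adarb1 195.94 kb, and that to Ddx58 24.20 kb, in Aco1. In the length deciles of these genes a peak was present in 28.9% (Adar and Ddx58) and 39.7% (Adarb1) of genes, so most genes of like length also held none. A gene without a called peak is not shown to be unbound, since neither expression nor depth was measured here.

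**Figure D4:**
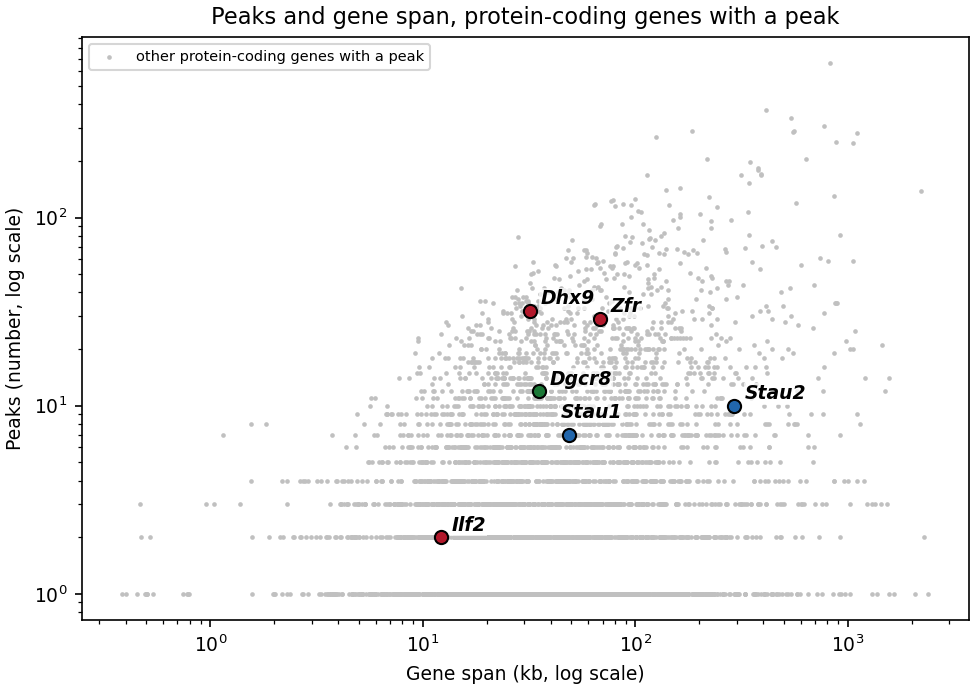
Number of peaks against gene span in kb, both on log scales, for protein-coding genes with at least 1 peak; coloured points are the 6 genes described here that hold any. Dhx9 has 32 peaks in 31.9 kb, and 28 genes of its length decile have more. Stau2 has 10 peaks in 291.5 kb, and 296 genes of its length decile have more.

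Across the 6 genes, all 82 peaks whose gene has a strand in the promoter table lay on that strand, where 98.5% of peaks did over all such protein-coding genes. Of the 92 peaks, 91 lay in no other annotated gene. The median length, 155 bases, was close to the list's 153. Distances between neighbouring midpoints had a median of 374.5 bases, and 65.1% of the 86 distances were under 500 bases. Over all protein-coding genes these were 489.5 bases and 50.9%. Dhx9 and Zfr gave 31 and 28 of the 86 distances, and 23 and 20 of the 56 under 500 bases. The median was 6341.5 bases in Stau2, and the single distance in Ilf2 was 869 bases. In the genes with a strand in the table, the upstream 50% of the span held 62 of 82 peaks (75.6%), with 62.2% over all such protein-coding genes. Zfr alone gave 28 of the 62, and in Dhx9 the count was 17 of 32. Overlap between neighbouring peaks was seen once in Dhx9 and in 2 pairs in Zfr, and in 0.724% of the whole list.

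No peak reached a start site that the promoter table lists for these genes. The promoter table has 11 windows for 8 of the 9 genes, from 250 bases before to 50 bases after a start site, and a peak overlapped none of them. Over the table, 148 of 32817 windows (0.451%) were overlapped, so an empty window was the usual state. Counting only peaks inside the gene and downstream of a start site, the distance from start to first peak was shortest in Dhx9, at 0.64 kb, followed by Zfr at 0.93 kb, Dgcr8 at 4.79 kb, Ilf2 at 5.95 kb and Stau1 at 6.17 kb.

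Outside the span but within 10 kb of it, 2 of the 9 genes had a peak, against 10.9% of all protein-coding genes. Ilf2 had 1 such peak, on the opposite strand (minus, 90475842 to 90475876), 35 bases long, 325 bases upstream of the gene and in no annotated gene. Stau1 had 1, on the plus strand 8.16 kb beyond its 3′ end, in Cse1l, the gene for a nuclear export receptor.

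A wider list of 30 other genes of double-stranded RNA biology was read in the same way. This list was also chosen with earlier results of these data known. At least 1 peak lay in 10 of the 30 genes (33.3%), with 18.9% for all protein-coding genes, and their median was 0 peaks. Of the 10 genes with a peak, 5 came from the group of 6 helicase genes described below. Of 10 further genes for proteins with a double-stranded RNA binding or DZF domain, 3 held peaks. These were Son, a splicing cofactor gene (36 peaks, 14 of them also in the neighbouring gene Donson), Dus2 (4) and Strbp (3). The remaining 7 held none, namely Adarb2, Adad1, Adad2, Zfr2, Nkrf, Cdkn2aip and Mrpl44. Adar, Adarb1, Adarb2, Adad1 and Adad2, which all encode proteins with an adenosine deaminase domain, were thus without a peak. In their length deciles 5.94 to 39.7% of genes held one.

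Of 5 further microRNA processing genes, Drosha, the nuclease of the Microprocessor, and Dicer1, which cuts its products in the cytoplasm, held 2 peaks each. Xpo5, Tarbp2 and Prkra held none. Dgcr8, with 12 peaks, thus carried more than its nuclease partner, although Drosha spans 110.5 kb and Dgcr8 35.3 kb. Both Drosha peaks lay 95.17 to 96.04 kb from the 5′ end of that gene.

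None of the 9 sensor and effector genes held a peak: Eif2ak2, Ifih1, Dhx58, Mavs, Tlr3, Zbp1, Oas1a, Oas2 and Oas3. In their length deciles a peak was present in 12.1 to 28.9% of genes, so most genes of like length held none either. Ddx58, as above, held none either. Eif2ak2 encodes PKR, which halts translation on binding double-stranded RNA, and Ifih1 encodes MDA5, a sensor of long double-stranded RNA. The median span of the 9 genes of this group was 15.4 kb, against 39.0 kb for the genes described first, and longer genes carry peaks more often. The level of these transcripts in the cells was not measured here.

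Of 6 other helicase genes, 5 held peaks, where 12.1 to 28.9% of genes in their length deciles and 18.9% of all protein-coding genes did. Ddx17 held 31, or 1.626 per kb of 19.1 kb, which is denser than Dhx9, and peaks covered 35.5% of its span. Dhx30 held 22, Dhx36, a G-quadruplex helicase gene, held 9, Dhx15 held 8 and Ddx5, the paralog of Ddx17, held 7 in 8.8 kb. Dhx29 held none. All 77 peaks of these helicase genes lay on the gene's own strand. Dhx9 is therefore not alone among helicase genes in the density of its peaks.

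**Figure D5:**
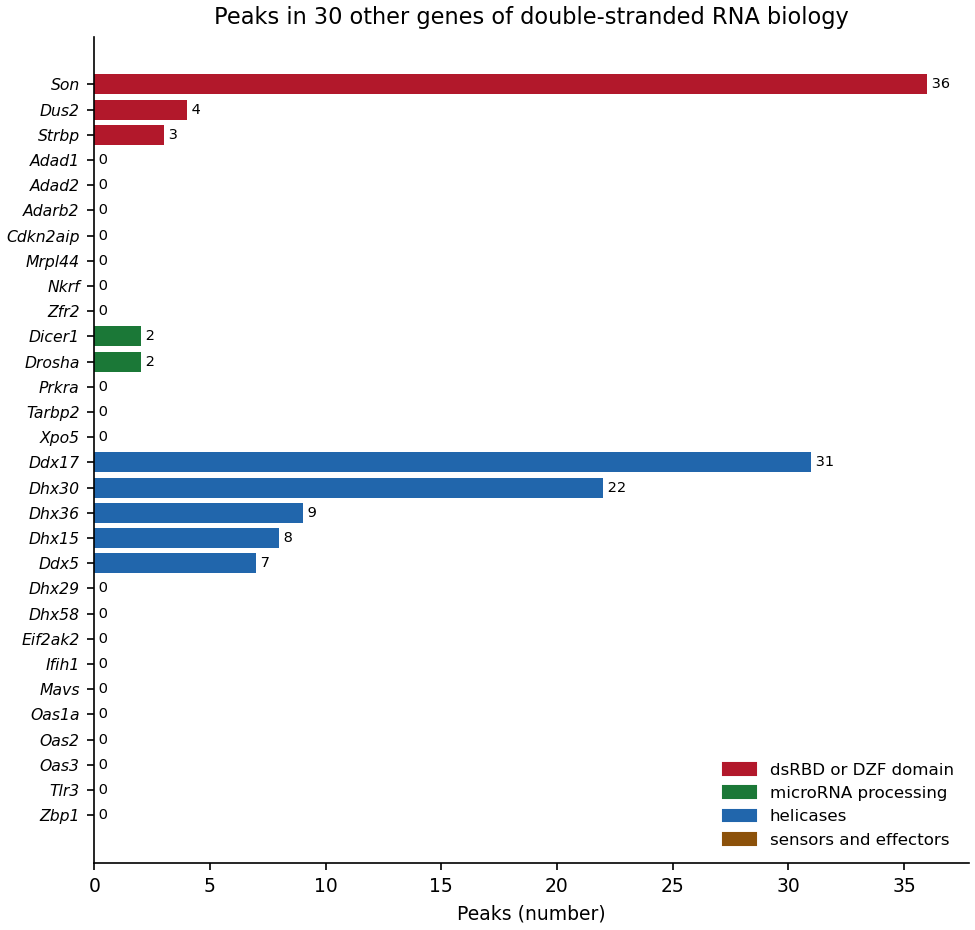
Number of peaks in each of 30 other genes of double-stranded RNA biology, coloured by group. Each bar is 1 gene in the 1 peak list of the series. Son, Ddx17 and Dhx30 hold 22 or more peaks, and all 9 sensors and effectors are at 0.

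The genes most like Dhx9 were sought among the 2267 protein-coding genes whose span is within 20% of its own, by number of peaks in the 1 list. Of these, 27.1% had a peak and 30 had more than 32, the highest having 79. The 5 closest were Hnrnpll, Chd4 and Crk with 32 peaks each, and Cnn3 and Cog4 with 33 each. The last 2 were taken from 5 genes that differed from Dhx9 by 1 peak, as those closest to it in span. The selection fixed both quantities, so the likeness is a description.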

How the data were processed

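FLASH was run on 2 DHX9 and 2 IgG libraries, grouped by sample title. The authors deposited 1 peak list made with PEAKachu, per the file itself, whose positions are 1-based bases and whose score column is empty. Bowtie2 2.2.6 and the builds hg19 and mm10 are named per the submitters' processing notes; the caller's settings, and how reads mapping to several places were treated, are not given in the sources used here. Positions were read as mm10.

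Peaks were assigned by midpoint to gene spans of a RefSeq table (GRCm38.p6), without exons. Strands came from the promoter table, which holds 17492 of the 21900 protein-coding genes, and hairpins from the miRNA table. A hairpin or window counted as overlapped from 1 base. Counts were made with Python 3.11.15 and pandas 2.3.3, tested on simulated peaks. Length deciles were taken over protein-coding genes.

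Named were the 9 genes, genes of the wider list, genes that share a peak with them, and the 5 like Dhx9 (ties by closest span); a few other genes under the rule are not reported here. The genes and lists were chosen with earlier results of these data known. Without values per library there is no test, interval or depth. The alternatives are given in the closing section.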

Additional observations from a re-analysis of the deposited data

How the results depend on the processing

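When only the 21796 peaks of median length or longer were kept, the 92 peaks of the 9 genes became 49, their density went from 0.133 to 0.071 per kb and the median spacing from 374.5 to 592 bases, by construction, since fewer peaks were counted. Ilf2 then had 0 peaks and Dgcr8 4, so that 5 of the 9 genes held a peak, as they did when at least 3 peaks were required. The 10 genes of the wider list with a peak became 8 in both settings. Merging peaks within 50 bases gave 71 peaks, 23 of them in Dhx9 and 20 in Zfr, and a median spacing of 554 bases. Any overlap of at least 1 base, and the majority strand only, left 92, and peaks in no other gene 91. Adar, Adarb1 and Ddx58 stayed at 0 in each of the 5 settings that recount peaks. Counting hairpins with a peak within 200 bases, an alternative added after seeing the data, gave 3 of the 3 hairpins in place of 1, where 7.36% of all hairpins had one. Gm24572 was counted there through the peak that overlaps Mir1306. No paired analysis was possible because the list holds no value per library, and no replicate could be left out. The peak caller's threshold and the depth set which genes have a peak at all, and neither is known.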

Other observations

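Of the 48 microRNA hairpins overlapped by a peak over the whole genome, 44 were overlapped on their own strand.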
